A study of Mus musculus with 9 samples.

Results

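The genes described here encode the proteins of the cytosolic ribosome. Rows of the expression table were taken whose symbol is Rpl or Rps followed by digits, at most 1 lower-case letter and optional digits, together with Rplp0, Rplp1, Rplp2 and Rpsa. This gave 84 genes of the 24060 in the table, 51 of the large and 33 of the small subunit. Of these, 77 encode core proteins and 7 are paralogs of them, and 82 of the 84 had more than 1 TPM in at least 1 sample and were tested (Rpl3l and Rpl10l were not). The symbols fit the label, with the limit that some proteins of the ribosome, such as those encoded by Fau, Gnb2l1 and Rpl36al, carry other names and these are given separately.

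RNA was sequenced from CD8 T cells of 3 lines of transnuclear mice, Rop7-I, Rop7-II and Rop7-III, with 3 biological replicates per line and 9 samples in all. Each line was made by nuclear transfer from 1 CD8 T cell specific for the Rop7 peptide of Toxoplasma gondii on H-2Ld, so that each is 1 clonotype with its own rearranged TCR alpha and beta genes, bred onto BALB/c and homozygous for both chains. All 9 samples shared the same handling: splenocytes were held overnight at 37°C with IL-2 at 10 ng/ml and without antigen, and CD3+ CD8+ cells that bound the Rop7 tetramer were obtained by flow sorting at 90 to 95% purity. There was no wild-type group, and the labels give neither age nor sex nor whether animals were pooled.

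A ribosome carries 1 copy of nearly every one of its proteins, apart from the acidic stalk proteins, and cells make them in matched amounts. Their mRNAs are among the most abundant in a lymphocyte and begin with a tract of pyrimidines, the 5′ terminal oligopyrimidine (TOP) motif, through which mTORC1 controls their translation. Resting T cells keep these mRNAs and engage them when they are activated and enlarge. Mammalian genomes also hold many processed copies of ribosomal protein genes, which were inserted as cDNA and can be nearly identical to the coding sequence.

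Pyrimidine runs near the start site could be looked up for 63 of the 84 genes in RefSeq promoter sequences of GRCm38.p6. A run of at least 8 bases that are all C or T, on the coding strand and within 40 bases of the start site, was found in 48 of the 63 (76.19%), against 32.58% of 27025 genes with a promoter. The letters CCGGAAG, on either strand in the 250 bases before to 50 bases after the start site, were found in 26 of the 63 (41.27%), against 9.93% of all. The promoter tables held 14 of the 20 genes that differed between clones below, 10 of them with a pyrimidine run and 8 with a run of at least 10. The windows of these 8 are shown because they hold the longest runs among the genes called in at least 1 pair, and the run is in capitals. The runs of Rpl14 and Rpl27a cross the annotated start, those of Rps15a, Rps24 and Rps25 lie wholly before it, and those of Rpl35a, Rpl36a and Rps15 begin 24 to 27 bases after it, so that a run in these windows is not shown to be the TOP tract of the mRNA.
Rpl14, chr9:120571501-120571530, plus strand: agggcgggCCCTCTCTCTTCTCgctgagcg
Rpl27a, chr7:109519186-109519215, plus strand: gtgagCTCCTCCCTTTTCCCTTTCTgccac
Rpl35a, chr16:33056468-33056497, plus strand: cggggcttgCCTTCCTCTTTCCgccatctt
Rpl36a, chrX:134585672-134585701, plus strand: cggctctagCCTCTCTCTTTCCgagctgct
Rps15, chr10:80292446-80292475, plus strand: gcagcccgtaCTTCCTTTTCCgagtaaccg
Rps15a, chr7:118116143-118116172, minus strand: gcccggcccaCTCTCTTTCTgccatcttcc
Rps24, chr14:24490710-24490739, plus strand: gagcggTCCTCTTTTCCTCCTCTCCagctc
Rps25, chr9:44407684-44407713, plus strand: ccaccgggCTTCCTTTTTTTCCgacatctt

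The processed copies bear directly on the values, because reads of 100 bases were assigned to genes by RSEM, which divides a read that fits several rows between them by estimate. Near-identical rows could be searched among the 23665 of 24060 rows that were found in GENCODE. For 11 of the 84 genes, 12 other rows of the table were at least 98% identical to a transcript of the gene over at least 200 bases. The other 73 genes had no such row among those searched. In 4 cases the other row held more TPM than the gene itself. The stretches below, 60 bases of coding sequence each, show how little separates these pairs, with the base that differs in capitals and positions counted from the A of the start codon. Rpl26 (chr11:68901583-68906989) and the processed pseudogene Gm15772 (chr5:3236431-3236868) differed by C177T and T288C over 438 aligned bases. Rpl30 (chr15:34440505-34443640) and Gm12191 (chr11:49678710-49679057) differed by G96A over 348 bases, and Rpl34 (chr3:130726831-130730398) and Rpl34-ps1 (chr6:71124610-71124963) by T132C and C318G over 354 bases. Rps27 (chr3:90212522-90213651) and Rps27rt (chr9:114982366-114982739), which is annotated as protein coding, were identical over 341 bases.
Rpl26: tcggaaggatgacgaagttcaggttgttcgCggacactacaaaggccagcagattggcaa
Gm15772: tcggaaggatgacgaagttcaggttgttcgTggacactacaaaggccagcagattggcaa
Rpl30: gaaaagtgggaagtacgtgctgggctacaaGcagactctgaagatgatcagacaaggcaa
Gm12191: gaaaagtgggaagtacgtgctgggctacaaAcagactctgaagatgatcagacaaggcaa
Rpl34: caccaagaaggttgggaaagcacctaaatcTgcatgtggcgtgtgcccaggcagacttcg
Rpl34-ps1: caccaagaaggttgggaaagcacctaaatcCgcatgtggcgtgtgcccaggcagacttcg
Rps27 and Rps27rt alike: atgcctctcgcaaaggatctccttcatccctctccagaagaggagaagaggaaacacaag

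Values are in TPM, in which the reads of a gene are divided by its length and every sample is scaled to the same total, so that levels can be compared between genes and samples but the number of reads behind a value is unknown. The CD8 T cell markers were present in every sample, their summed TPM lying between 6923 and 7653. Rop7-II replicate 1 stood apart in markers of other cells: 18 of 18 tested B-cell markers and 13 of 13 tested myeloid markers were highest there, and the summed B-cell TPM was 2736 against 163 to 1149 in the other 8 samples. Its summed myeloid TPM was 865 against 144 to 366 elsewhere. Summed B-cell TPM was 443, 1149 and 855 in Rop7-I, 212 and 302 in Rop7-II replicates 2 and 3, and 163 to 347 in Rop7-III. Rop7-I thus lay above every other sample except Rop7-II replicate 1. Summed erythroid TPM (5 of 6 markers over 1 TPM, Hbb-bs at 0) was 225 to 1408 in Rop7-I, 15.2 to 117 in Rop7-II and 69.0 to 286 in Rop7-III. Summed TPM of NK cell markers (2 of 5 over 1 TPM) was 12.97 to 18.4, 2.5 to 3.35 and 5.61 to 7.91 in the same order, so that Rop7-I lay wholly above Rop7-II in both lists. The part of these other cells in the results was not tested beyond the values without that sample and the fit with the B-cell level, given below. In bulk RNA a smaller number of expressing cells and less RNA per cell cannot be told apart.

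Ribosomal protein transcripts made up close to the same large share of the mRNA in all 3 clones, with Rop7-II at the low end. The 84 genes held 18.77, 18.68 and 18.69% of total TPM in the 3 samples of Rop7-I, a mean of 18.7% ± 0.0516 (SD, n = 3). They held 17.54, 18.01 and 17.97% in Rop7-II (17.8% ± 0.262) and 18.73, 18.39 and 17.91% in Rop7-III (18.3% ± 0.412). All 3 samples of Rop7-I lay above all 3 of Rop7-II, whereas Rop7-III spread from the level of Rop7-I down into that of Rop7-II. Without Rop7-II replicate 1 the mean of Rop7-II was 17.99%, and without Rop7-III replicate 3 the mean of Rop7-III was 18.6%. No test was made of the share, which is a sum over genes chosen as a family.

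**Figure D1:**
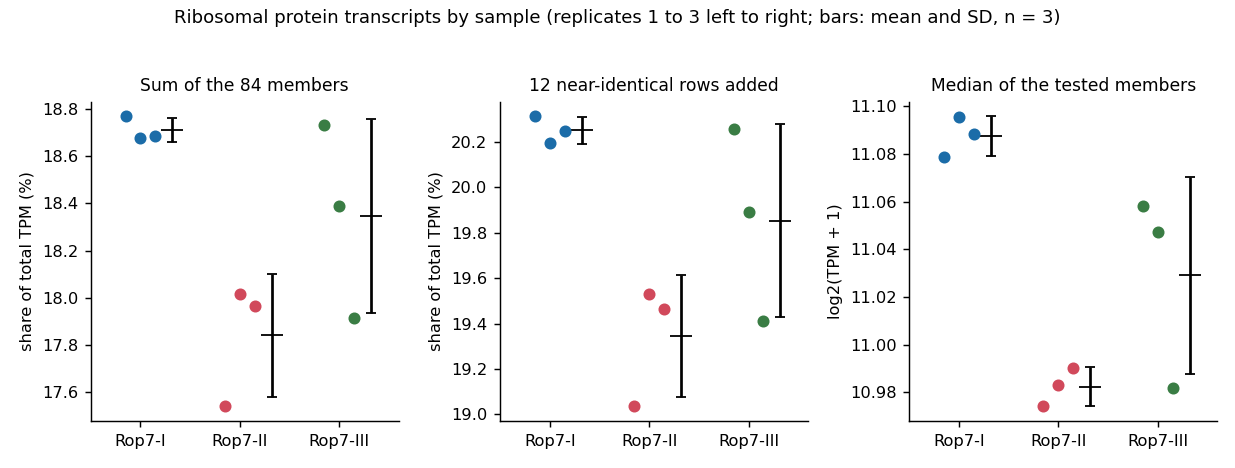
Share of total TPM in percent held by the 84 ribosomal protein genes (left), the same with the 12 near-identical rows added (middle), and the median log2(TPM + 1) of the 82 tested genes (right), by clone. Points are samples, bars the mean and SD of 3 samples, and no axis starts at 0. Rop7-I lies highest and its samples close together, Rop7-II lowest, and Rop7-III replicate 3 falls to the level of Rop7-II.

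Both subunits contributed to this order. The large-subunit genes held 10.2% ± 0.0165 of TPM in Rop7-I, 9.65% ± 0.111 in Rop7-II and 10.0% ± 0.205 in Rop7-III (SD, n = 3), and the small-subunit genes 8.53% ± 0.0381, 8.19% ± 0.155 and 8.35% ± 0.208. The ratio of large to small stayed within 1.168 and 1.201 over the 9 samples, lowest in Rop7-II replicate 3, where Rps14 was highest. Adding the 12 near-identical rows raised the shares to 20.3, 19.3 and 19.9% in Rop7-I, Rop7-II and Rop7-III and kept their order.

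The family spanned a wide range of levels in TPM. Its low end, below 100 TPM, held only paralogs together with Rpl26 and Rpl30, for which a near-identical row held 99.38 and 98.36% of the summed mean. Among the 84 genes 69 had a mean over 1000 TPM, 7 lay between 100 and 1000 and 8 below 100, and 61 of the 100 most abundant rows of the table were ribosomal protein genes. The highest mean was that of Rplp1, a stalk protein, at 5639 TPM, followed by Rps9 at 4878 and Rps4x at 4153. The tested genes with the lowest means were the paralogs Rpl39l (0.480 TPM) and Rps4l (0.524 TPM) and then Rpl26 (17.4 TPM), beside which the near-identical row Gm15772 held nearly all of the summed TPM. Replicates were close: the SD within clones on the log2 scale had a median of 0.04 over the 82 genes, against 0.05 over 183 other genes with a mean over 500 TPM and 0.09 over all 12115 tested genes. The genes with the largest such SD were Rps27 (1.46), Rpl26 (0.79), Rpl30 (0.37), Rpl39l (0.34), Rps4l (0.25), Rps14 (0.20) and Rpl34 (0.17), which are the 4 genes with most of their TPM in another row, a pair of nearly silent paralogs, and Rps14.

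The level of the family shifted by small amounts between samples, and how closely single members moved together was not measured. On the log2 scale 65 of the 82 genes were higher in Rop7-I than in Rop7-II, as were 5775 of all 12115 tested genes. In Rop7-III, 55 were higher than in Rop7-II (5554 of all) and 28 higher than in Rop7-I (5941 of all). The median log2(TPM + 1) of the 82 tested genes was 11.08, 11.10 and 11.09 in Rop7-I, 10.97, 10.98 and 10.99 in Rop7-II and 11.06, 11.05 and 10.98 in Rop7-III, while the median over all tested genes lay between 4.77 and 4.83. Of the 82 genes, 49 had their highest value of the 9 samples in Rop7-I and 49 their lowest in Rop7-II. Rop7-II replicate 1 alone was lowest for 32 genes, Rop7-II replicate 2 for 11 and replicate 3 for 6, and Rop7-III replicate 3 was lowest for 17. Counts of highest and lowest samples were not made over all genes, so they have no baseline here. In Rop7-III replicate 3 the summed B-cell TPM was 245 and the myeloid 185, within the range of the other samples.

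**Figure D2:**
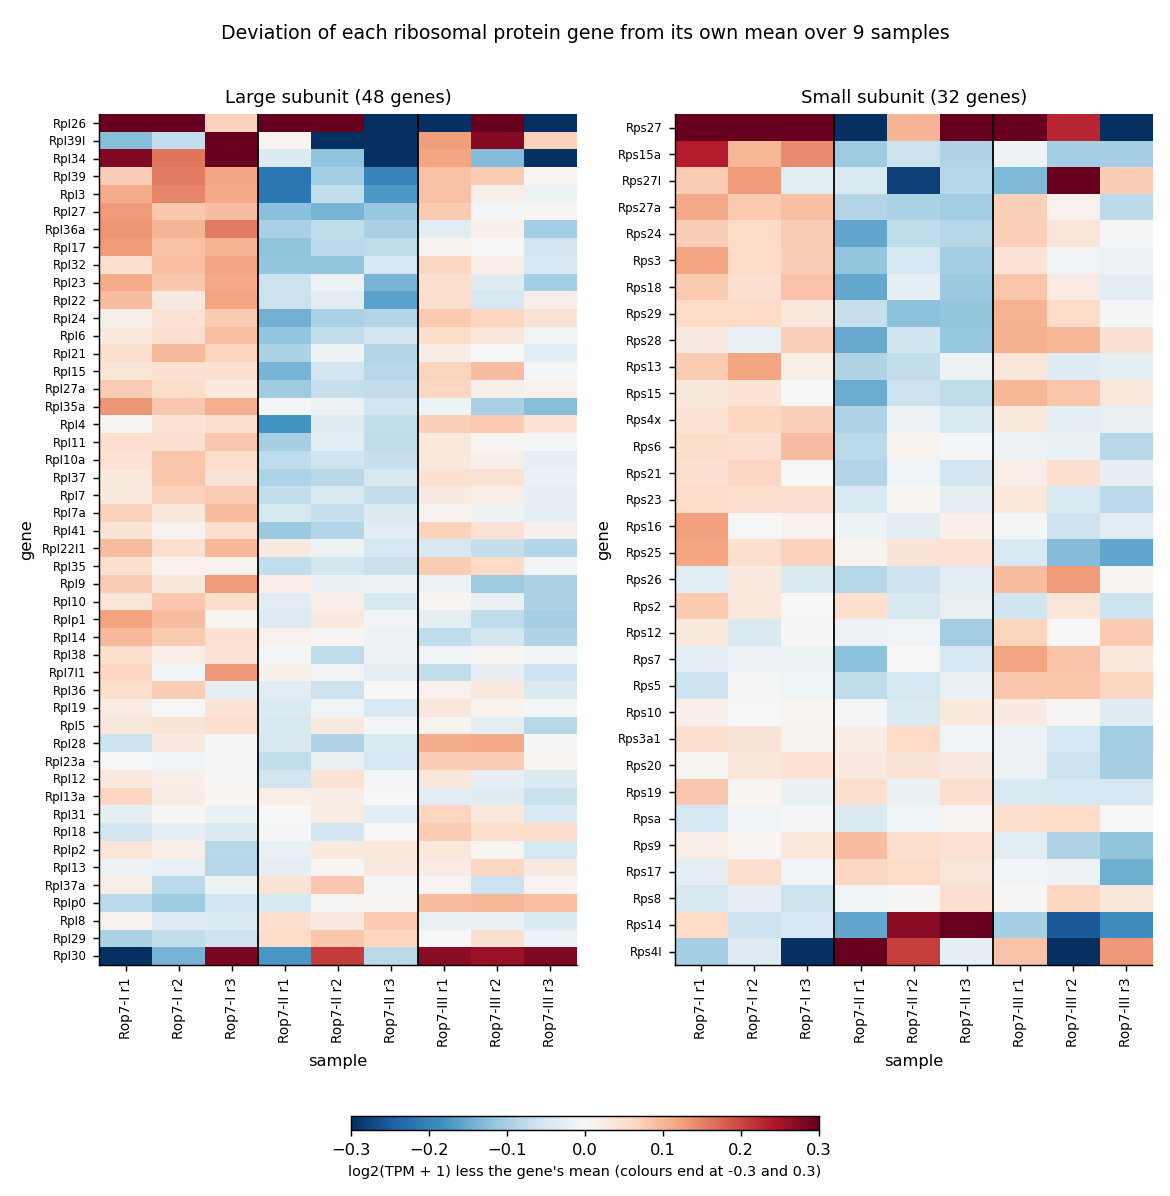
Deviation of log2(TPM + 1) from each gene's own mean over the 9 samples (r1 to r3 are replicates), for 48 tested large-subunit genes (left) and 32 small-subunit genes (right), ordered by Rop7-I minus Rop7-II. Red is above and blue below the mean, with colours ending at 0.3 either way; the Rop7-II columns are mostly blue and the Rop7-I columns mostly red, and the rows at the ends of the order hold genes with unsteady replicates (Rpl26, Rpl34, Rps27, Rpl30, Rps14).

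Differences between clones were tested gene by gene with limma on log2(TPM + 1) in a fit of all 9 samples, with Benjamini-Hochberg adjustment over the 12115 tested genes, and a gene was called at an adjusted p under 0.01. No ribosomal protein gene was called with a difference of at least 2-fold in any pair, where 1.7% of all genes were in Rop7-III against Rop7-II, 1.06% in Rop7-III against Rop7-I and 0.949% in Rop7-I against Rop7-II. Across the 3 clones the F test called 17 of the 82 (20 were called in at least 1 pair), against 14.1% of all tested genes. The pairs share samples, so their values are given side by side and are not independent of each other.

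Rop7-I lay above Rop7-II in most of the family, under each scaling tried except the one that takes out the family's own median. In this pair 11 of 82 members passed upward and 1 downward, where 3.67 and 3.85% of all genes did. The median log2 fold change was 0.09 over the 82 genes and -0.01 over all tested genes, and 65 of the 82 lay above 0. For 48 genes the 3 values of Rop7-I were all above the 3 of Rop7-II, and for 6 all below, against 16.5 and 18.5% of all genes. At an unadjusted p under 0.05 the members counted 42 higher and 3 lower, against 14.9 and 17.2% of all genes. The erythroid and NK cell markers were also wholly higher in Rop7-I, and their part in this difference was not tested. Without Rop7-II replicate 1, 5 genes were called higher and 1 lower, and the median was 0.08. In that comparison the summed B-cell TPM of Rop7-I (443 to 1149) lay wholly above that of Rop7-II replicates 2 and 3 (212 and 302). Its part there was not tested.

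Rop7-III against Rop7-II went the same way with a smaller median. There limma called 7 of 82 members upward and 0 downward, where 6.39% and 5.89% of all genes were called, and at an unadjusted p under 0.05 the members counted 33 higher and 9 lower, against 17.9 and 19.9% of all genes. The median log2 fold change was 0.06, against -0.02 over all genes. Values did not overlap for 35 genes higher and 10 lower in Rop7-III, against 19.6 and 21.2% of all genes. The share of members called was thus near that of all genes in the upward direction.

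Rop7-III against Rop7-I had the fewest calls. Of the 82 genes 1 was called higher and 4 lower, where 2.58 and 2.28% of all genes were, and the median log2 fold change was -0.05 against -0.0035 over all genes. Without Rop7-III replicate 3 the median was -0.0258. Rop7-III lay wholly below Rop7-I for 35 genes and wholly above for 11, against 19.7 and 18.4% of all genes. At an unadjusted p under 0.05 the members counted 11 higher and 26 lower, against 14.7 and 13.3% of all genes. Summed B-cell TPM lay wholly lower in Rop7-III (163 to 347) than in Rop7-I (443 to 1149), and the fit with the B-cell level is given below.

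**Figure D3:**
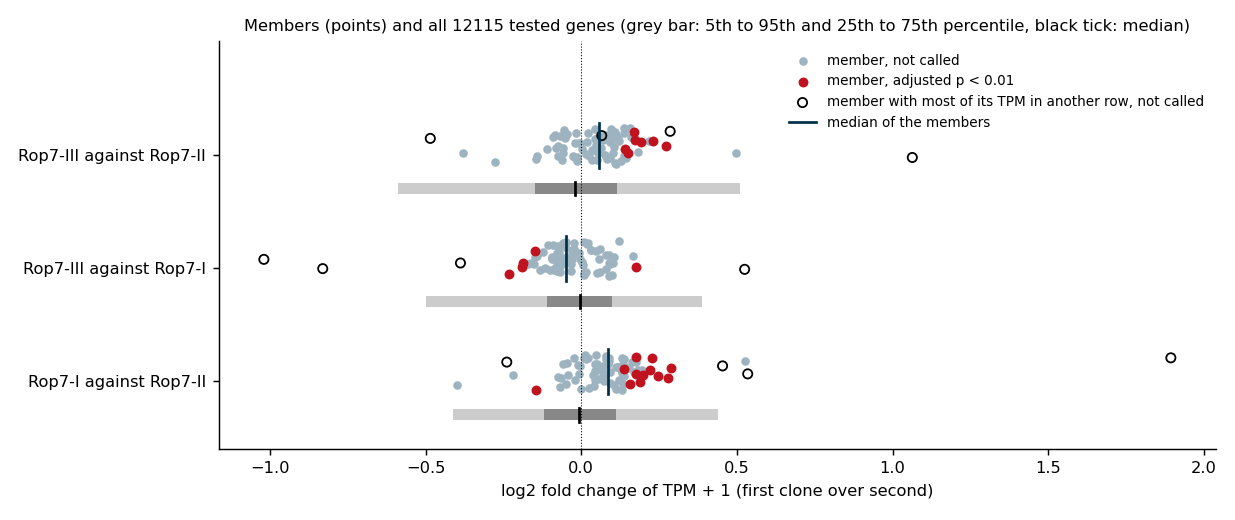
Log2 fold change on the log2(TPM + 1) scale of the 82 tested ribosomal protein genes (points) in each pair of clones, with all 12115 tested genes as a grey bar (light: 5th to 95th percentile, dark: 25th to 75th, tick: median). Red points passed an adjusted p of 0.01 and open circles are the 4 genes with most of their TPM in another row; the members' medians lie at 0.06, -0.05 and 0.09 from top to bottom, and called genes lie within 0.3 of 0.

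Single genes that led these differences are described by their place in the ribosome. Read against the family median, Rpl17, Rpl27, Rpl36a and Rps15a were not called in Rop7-I against Rop7-II (adjusted p 0.0188 to 0.0346, limma). Nor were Rpl24 and Rps28 in Rop7-III against Rop7-II (0.0134 and 0.0142) or Rps25 and Rps15a in Rop7-III against Rop7-I (0.0254 and 0.0255). The calls of Rpl39, Rpl3 and Rpl29, and that of Rplp0 in Rop7-III against Rop7-I, were kept. Among the proteins of the peptide exit tunnel and the catalytic centre of the large subunit, Rpl39, a small protein that lines the exit tunnel, was lowest in Rop7-II. It measured 2259, 2388 and 2331 TPM in Rop7-I, 1844, 2001 and 1870 in Rop7-II and 2280, 2264 and 2160 in Rop7-III, so that Rop7-II lay apart from both other clones. The log2 fold change was 0.29 ± 0.04 (SE; adjusted p = 0.00145, limma) in Rop7-I and 0.23 ± 0.04 (adjusted p = 0.00305) in Rop7-III, each against Rop7-II. Rpl3, which lies next to the peptidyl transferase centre, followed the same order with 2153, 2207 and 2159 TPM in Rop7-I, 1717, 1894 and 1770 in Rop7-II and 2117, 2016 and 1974 in Rop7-III. Its call was made for Rop7-I against Rop7-II (0.28 ± 0.04, adjusted p = 0.00222), and Rop7-III against Rop7-II missed the limit (0.18 ± 0.04, adjusted p = 0.0113) but was called without Rop7-II replicate 2 (adjusted p = 0.00397). Rpl17, another protein near the tunnel, measured 3381, 3285 and 3323 TPM in Rop7-I and 2842, 2930 and 2934 in Rop7-II (0.20 ± 0.03, adjusted p = 0.00229), with Rop7-III between them at 3116, 3089 and 2976.

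Of the other large-subunit proteins, Rpl27 had the smallest adjusted p between Rop7-I and Rop7-II. It lay at 1169, 1131 and 1141 TPM in Rop7-I, at 981, 971 and 989 in Rop7-II and at 1129, 1066 and 1072 in Rop7-III. The log2 fold change of Rop7-I against Rop7-II was 0.23 ± 0.03 (adjusted p = 0.00116, limma). Rpl24, which reaches across to the small subunit, measured 1512, 1542 and 1580 TPM in Rop7-I, 1353, 1400 and 1406 in Rop7-II and 1580, 1563 and 1542 in Rop7-III, and was called in Rop7-III against Rop7-II (0.17 ± 0.03, adjusted p = 0.00247). Rpl36a was high in Rop7-I alone, with 1269, 1244 and 1291 TPM against 1082, 1099 and 1083 in Rop7-II (0.22 ± 0.03, adjusted p = 0.0023) and 1132, 1170 and 1079 in Rop7-III (-0.17 ± 0.03 for Rop7-III against Rop7-I, adjusted p = 0.0105).

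Rpl29 ran against the family. It was the 1 member whose call in Rop7-I against Rop7-II was downward, at 1353, 1373 and 1384 TPM against 1502, 1531 and 1513 (-0.15 ± 0.03, adjusted p = 0.00609, limma), with Rop7-III at 1447, 1493 and 1429. Its gene (chr9:106429454-106431568) lies 10597 bases from Abhd14a, whose log2 fold change was -2.26 in the same pair, and 4 genes called with at least a 2-fold difference lay within 1000000 bases. Such a gene also lay near Rpl36a in this pair (Armcx4, 1.54) and near Rps28 in Rop7-III against Rop7-II (Myo1f, 1.20). Rps25, called lower in Rop7-III against Rop7-I, had Mcam (1.07) in that pair, and the other calls had none. These neighbours were looked at after their values were seen, and their part in the values of the called members was not tested. Rpl14 and Rpl35a were called lower in Rop7-III than in Rop7-I, the direction of the family's median in that pair, and read against the family median neither was called (adjusted p = 0.0802 and 0.0274). Rpl14 measured 1315, 1334 and 1303 TPM in Rop7-III against 1483, 1464 and 1431 in Rop7-I (-0.15 ± 0.03, adjusted p = 0.00625), with Rop7-II between them at 1399, 1389 and 1371. Rpl35a measured 2011, 1900 and 1860 TPM in Rop7-III against 2228, 2149 and 2194 in Rop7-I (-0.19 ± 0.03, adjusted p = 0.00817), and Rop7-II overlapped Rop7-III at 2025, 2007 and 1955.

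The stalk genes did not move as a unit. Rplp0, the base of the stalk that recruits elongation factors, was the 1 member called higher in Rop7-III than in Rop7-I, with 4159, 4171 and 4143 TPM against 3687, 3615 and 3743 (0.18 ± 0.03, adjusted p = 0.00443, limma) and with 3765, 3904 and 3913 in Rop7-II between them. Rplp1, one of the acidic proteins that bind it, lay the other way at 5524, 5347 and 5257 TPM in Rop7-III against 6129, 6006 and 5652 in Rop7-I, a difference that was not called (-0.14 ± 0.04, adjusted p = 0.0437). Rplp2, its partner, lay between 3371 and 3662 TPM in all 9 samples and was not called in any pair (adjusted p at least 0.745), and the difference between these 3 genes was not tested.

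In the small subunit, Rps28, which sits near the exit of the mRNA channel, was lowest in Rop7-II. It measured 2718, 2894 and 2789 TPM there and 3249, 3235 and 3115 in Rop7-III (0.19 ± 0.04 for Rop7-III against Rop7-II, adjusted p = 0.00493, limma), with Rop7-I overlapping Rop7-III at 3073, 2970 and 3171. Rps25, a protein of the head that some viral internal ribosome entry sites need, was lowest in Rop7-III at 1381, 1303 and 1279 TPM, against 1548, 1474 and 1496 in Rop7-I (-0.19 ± 0.03, adjusted p = 0.00789) and 1436, 1464 and 1470 in Rop7-II. Rps15a was higher in Rop7-I than in either other clone, at 300.2, 273 and 281 TPM against 237, 244 and 239 in Rop7-II (0.25 ± 0.04, adjusted p = 0.00342) and 252, 237 and 238 in Rop7-III (-0.23 ± 0.04, adjusted p = 0.00637). With the 2 near-identical rows Rps15a-ps4 and Rps15a-ps6 added, its fold change against Rop7-II stayed at 0.25 (adjusted p = 0.00468) and that of Rop7-III against Rop7-I was no longer called (-0.21, adjusted p = 0.0123). Rpsa, the laminin receptor precursor, lay between 1984 and 2144 TPM in all samples and was not called (adjusted p at least 0.209).

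**Figure D4:**
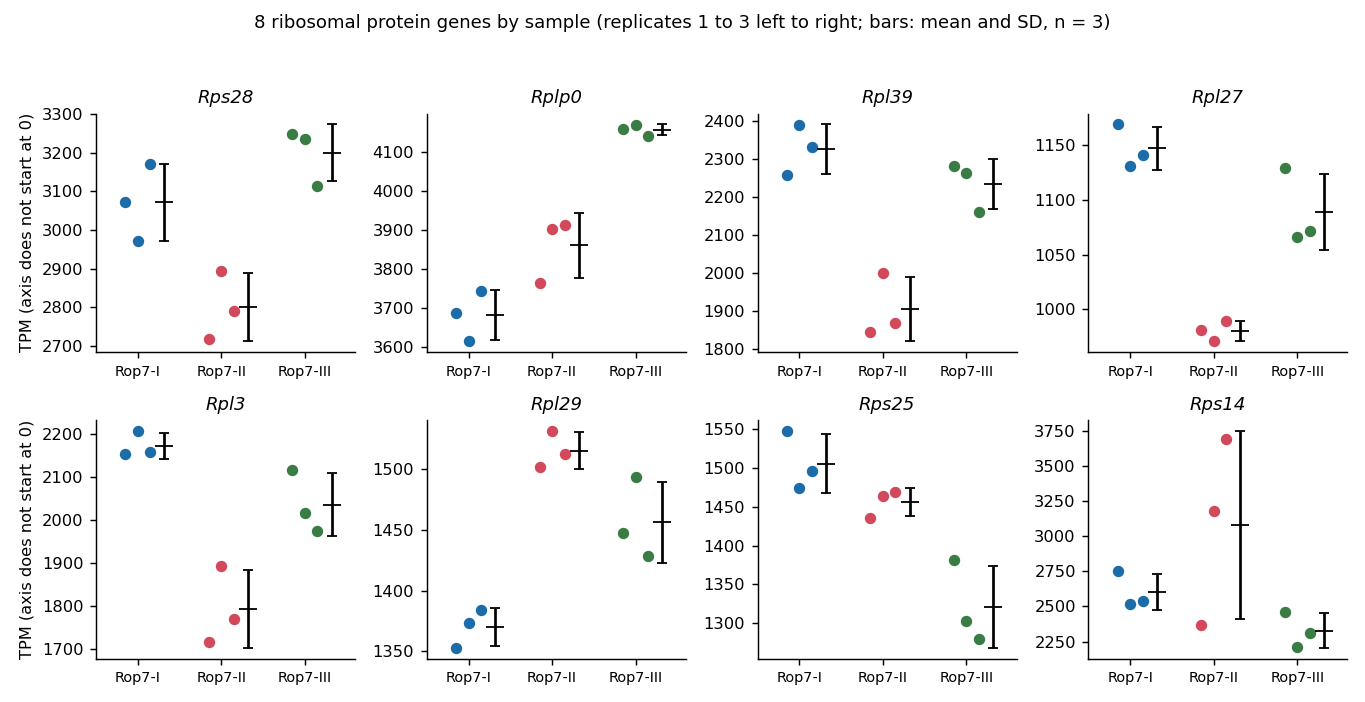
TPM of 8 ribosomal protein genes in each sample by clone, points for replicates 1 to 3 from left to right and bars for the mean and SD of 3 samples; the axes do not start at 0. Rplp0 is highest in Rop7-III, Rps28, Rpl39, Rpl27 and Rpl3 lowest in Rop7-II, Rpl29 lowest in Rop7-I and Rps25 lowest in Rop7-III, while Rps14 spreads from 2366 to 3690 within Rop7-II.

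Other calls were of the same size. In Rop7-III against Rop7-II they included Rpl27 (0.15, adjusted p = 0.00588, limma) and Rps15 (0.17, adjusted p = 0.00636), and in Rop7-I against Rop7-II they included Rpl24, Rpl27a, Rps3, Rps24 and Rps27a, with log2 fold changes between 0.14 and 0.19. Rps27a is made as a fusion with ubiquitin, and its values were 2004, 1953 and 1971 TPM in Rop7-I against 1742, 1732 and 1722 in Rop7-II. Of the 24 calls 3 were made with every 1 of the 9 samples left out, among them those of Rpl27 and Rpl39 in Rop7-I against Rop7-II. Each of the other 21 calls was lost without at least 1 sample, with an adjusted p of up to 0.0411 (Rpl35a). With a sample left out the number called ranged from 1 (without Rop7-III replicate 2) to 7 in Rop7-III against Rop7-II. It ranged from 0 (without Rop7-I replicate 1, Rop7-I replicate 3, Rop7-III replicate 2 or Rop7-III replicate 3) to 6 in Rop7-III against Rop7-I, and from 2 (without Rop7-I replicate 1) to 12 in Rop7-I against Rop7-II. The counts stayed within 1.5 times those reported only without Rop7-II replicate 2 or Rop7-III replicate 3 in Rop7-III against Rop7-II, without Rop7-II replicate 1 in Rop7-III against Rop7-I, and without Rop7-II replicate 2, Rop7-III replicate 1 or Rop7-III replicate 3 in Rop7-I against Rop7-II. Once each sample's dependence on transcript GC content and length was taken out, 1, 0 and 0 members were called in the 3 pairs, with medians of 0.11, -0.0067 and 0.10.

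To find genes that departed from the family, the median of the 82 genes in each sample was taken off the log2 values of that sample. This step shifted every gene of the table. The median log2 fold change over all genes became -0.07 in Rop7-III against Rop7-II, 0.05 in Rop7-III against Rop7-I and -0.11 in Rop7-I against Rop7-II. The shares of all genes given here carry that shift and do not measure how often genes depart from their own level. In Rop7-III against Rop7-II, 2 members, among them Rpl39 (0.18, adjusted p = 0.0051, limma), were called above the family, where 4.25% of all genes were, and 4 members below, where 7.17% were. The latter included Rps9 (-0.19, adjusted p = 0.0017), which lies at the mRNA entry site, and Rps25 (-0.19, adjusted p = 0.003). In Rop7-III against Rop7-I, 6 members were called above the family, where 3.73% of all genes were, led by Rplp0 (0.23, adjusted p = 0.0015). In the same pair 0 were called below, where 1.46% of all genes were, and at an unadjusted p under 0.05 there were 22 members above and 9 below, against 22.5 and 6.99% of all genes. The same counts were 19 and 17 in Rop7-III against Rop7-II (12.2 and 26% of all genes) and 10 and 21 in Rop7-I against Rop7-II (6.28 and 34.9%). In Rop7-I against Rop7-II, Rpl39 (0.18, adjusted p = 0.005) and Rpl3 (0.17, adjusted p = 0.0086) stood above the family, where 2.06% of all genes did, and 7 members stood below, where 11.0% of all genes did, among them Rpl29 (-0.25, adjusted p = 0.00035) and Rplp0 (-0.17, adjusted p = 0.0039).

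Most of the members furthest from the family by fold change alone were ones that replicates did not hold steady. Rplp0, among the 3 furthest above the family in Rop7-III against Rop7-I, was steady, with an SD within clones of 0.02. Rps27 measured 502, 426 and 584 TPM in Rop7-I, 17.6, 285 and 460 in Rop7-II and 337, 312 and 210.0 in Rop7-III, and its log2 fold change of 1.89 ± 0.96 between Rop7-I and Rop7-II was not called (adjusted p = 0.211, limma). Rps27 and Rps27rt together held 7269 to 7586 TPM in Rop7-I, 7330 to 7923 in Rop7-II and 7549 to 7653 in Rop7-III, and the difference between Rop7-I and Rop7-II in the sum was -0.05 ± 0.04 (adjusted p = 0.414). Of the stretches of 100 bases in the Rps27 transcript, 98.4% occur in Rps27rt as well, against 31.0 to 32.6% for the other 3 pairs. The low Rps27 value of Rop7-II replicate 1 was therefore not seen in the sum, which was 7330 TPM in that sample.

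Rpl26, Rpl30 and Rpl34 also had most of their TPM in another row, although a smaller part of their stretches of 100 bases was shared with it. Rpl26 measured between 5.37 and 31.7 TPM, while Gm15772 held 99.38% of their summed mean, and the sum was 3051, 2935 and 3080 TPM in Rop7-I, 2609, 2695 and 2666 in Rop7-II and 2780, 2706 and 2708 in Rop7-III. In the sum, Rop7-I exceeded Rop7-II by 0.19 ± 0.03 (adjusted p = 0.00315, limma), whereas the Rpl26 row alone gave 0.53 ± 0.52 (adjusted p = 0.53). Rpl34 with Rpl34-ps1 likewise summed to 2639, 2556 and 2631 TPM in Rop7-I against 2261, 2322 and 2260 in Rop7-II (0.19 ± 0.03, adjusted p = 0.00258), while the row alone, at 254, 234 and 276 against 203, 192 and 163 TPM, was not called (0.45 ± 0.11, adjusted p = 0.0251). Rpl30 with Gm12191 ranged from 2586 to 3084 TPM and was not called in any pair (adjusted p at least 0.0223). With all 12 rows added, 13 members passed upward and 1 downward in Rop7-I against Rop7-II, and the counts of the other pairs stayed at 7 and 5. These sums were chosen after the values were seen.

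**Figure D5:**
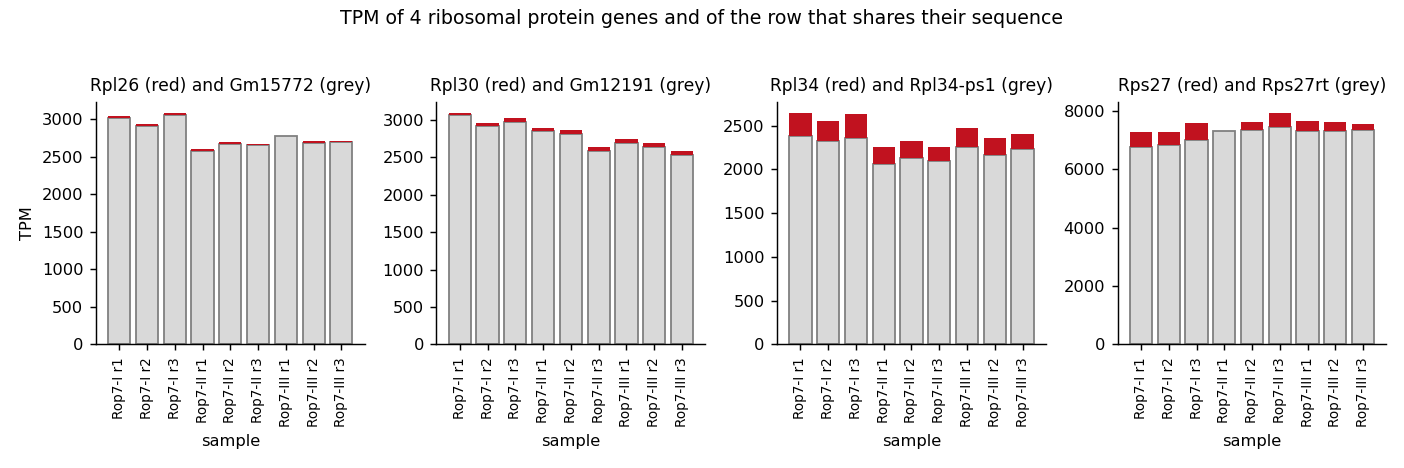
TPM of Rpl26, Rpl30, Rpl34 and Rps27 (red) stacked on the row that shares their sequence (grey) in each sample, on axes that start at 0. Nearly all of each column is grey; the red part of Rps27 varies from 17.6 to 584 TPM while the column as a whole stays between 7269 and 7923.

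Rps14 was unsteady without a row of near-identical sequence among the rows searched. It measured 2366, 3181 and 3690 TPM in Rop7-II, 2749, 2520 and 2540 in Rop7-I and 2460, 2213 and 2314 in Rop7-III. Rop7-II replicate 1, the sample with the most B-cell and myeloid RNA, was thus the lowest of its clone and fell among the samples of the other clones. The log2 fold change of Rop7-III against Rop7-II was -0.38 ± 0.13 (adjusted p = 0.0631, limma) and that of Rop7-I against Rop7-II -0.22 ± 0.13 (adjusted p = 0.291), and neither was called. Without Rop7-II replicate 1 both were called, at -0.56 ± 0.07 (adjusted p = 0.000951) and -0.40 ± 0.07 (adjusted p = 0.00721).

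Most of the paralogs were silent or weak beside the genes they resemble. Rpl3l (up to 0.21 TPM), Rpl10l (up to 0.14 TPM), Rpl39l (up to 1.42 TPM) and Rps4l (up to 1.12 TPM), which are known from muscle or testis or are retrocopies, stood beside 1717 to 2207 TPM of Rpl3, 1980 to 2239 of Rpl10, 1844 to 2388 of Rpl39 and 3892 to 4361 of Rps4x. Rpl7l1 (50.8 to 58.7 TPM, against 3176 to 3527 of Rpl7) and Rps27l (54.6 to 81.97 TPM), a p53 target, were expressed in every sample. Rpl22l1 was the exception, with a higher level than its parent: 383, 371 and 384 TPM in Rop7-I, 365, 355 and 346 in Rop7-II and 347, 341 and 337 in Rop7-III, against 236, 225 and 240 TPM, 211, 216 and 198 TPM, and 229, 214 and 224 TPM of Rpl22. Rpl22 is needed for the development of alpha-beta T cells. None of the 7 was called in any pair, the smallest adjusted p being 0.0107 for Rpl22l1 in Rop7-III against Rop7-I (-0.15 ± 0.03, limma); with the near-identical row Gm15421 added it was 0.00936, and without Rop7-II replicate 1 it was 0.00686.

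Of the ribosomal proteins with other symbols, Fau, the precursor of the small-subunit protein S30, lay between 3254 and 3451 TPM in all 9 samples, and Gnb2l1, which encodes the scaffold protein RACK1, between 2723 and 3028. Neither they nor Rpl36al (606 to 722 TPM) were called in any pair, the smallest adjusted p being 0.0175 (limma) for Rpl36al.

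Other genes of the translation pathway were counted in lists. Of 27 tested translation factors and other TOP mRNAs 7 passed upward and 0 downward in Rop7-III against Rop7-II, where 6.39 and 5.89% of all genes did, with a median log2 fold change of 0.10 (20 of 27 above 0). Eif3e, a subunit of the initiation factor eIF3, rose most clearly there, from 354, 389 and 371 TPM in Rop7-II to 481, 456 and 484 in Rop7-III (0.35 ± 0.05, adjusted p = 0.000864, limma). Naca, of the nascent polypeptide-associated complex, was called higher in Rop7-III (0.21 ± 0.03, adjusted p = 0.00127) and in Rop7-I (0.19 ± 0.03, adjusted p = 0.00332) than in Rop7-II. In the list 3 genes passed upward and 1 downward in Rop7-I against Rop7-II, where 3.67 and 3.85% of all genes did, the former including Npm1, a nucleolar chaperone (0.27 ± 0.03, adjusted p = 0.00119), and the latter being Vim, whose mRNA also carries a TOP motif (-0.71 ± 0.11, adjusted p = 0.0033). In Rop7-III against Rop7-I, Eif3f was called higher (0.29 ± 0.05, adjusted p = 0.00946) and Hnrnpa1 lower (-0.20 ± 0.04, adjusted p = 0.00764).

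Ribosome biogenesis factors were called in both directions, except in Rop7-III against Rop7-I, where all calls were lower. Of 60 tested, 2 passed upward and 4 downward in Rop7-III against Rop7-II, where 6.39 and 5.89% of all genes did. The counts were 0 and 6 in Rop7-III against Rop7-I (2.58 and 2.28% of all genes) and 3 and 2 in Rop7-I against Rop7-II (3.67 and 3.85%), with median log2 fold changes of -0.07, -0.07 and 0.02. Of the 60 genes, 45 lay below 0 in Rop7-III against Rop7-II, 47 in Rop7-III against Rop7-I and 24 in Rop7-I against Rop7-II. Ubtf, a factor of RNA polymerase I, measured 143, 143 and 151 TPM in Rop7-III against 185, 175 and 172 in Rop7-II (-0.28 ± 0.04, adjusted p = 0.00118, limma), and Rrp12, which exports subunits, 10.2, 10.3 and 9.56 TPM against 17.6, 17.0 and 13.9 in Rop7-I (-0.63 ± 0.09, adjusted p = 0.00252). Ncl, encoding nucleolin, was higher in Rop7-I than in Rop7-II (0.23 ± 0.03, adjusted p = 0.00141). Among 18 tested genes of mTORC1 and Myc control, Rptor, a subunit of mTORC1, was called higher in Rop7-III (33.7, 33.0 and 35.8 TPM) and in Rop7-I (29.1, 28.7 and 26.5 TPM) than in Rop7-II (22.6, 23.5 and 22.9 TPM), by 0.55 ± 0.05 (adjusted p = 0.000117) and 0.28 ± 0.05 (adjusted p = 0.00702). Myc itself was called higher in Rop7-I, at 62.9, 65.7 and 64.1 TPM against 48.0, 40.5 and 49.7 in Rop7-II (0.48 ± 0.08, adjusted p = 0.00465). The list's medians were -0.06, -0.05 and -0.01 in Rop7-III against Rop7-II, Rop7-III against Rop7-I and Rop7-I against Rop7-II. The 77 genes of the mitochondrial ribosome had medians of -0.06, -0.01 and -0.04, with 1 called higher and 3 lower, 0 higher and 2 lower, and 2 higher and 0 lower in these pairs, beside the same shares of all genes.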

How the data were processed

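Libraries were made from 200 ng of RNA per sample with an mRNA library kit and sequenced as single-end reads of 100 bp, not strand-specific. Per the labels and the methods of the study, the authors assigned reads to RefSeq genes of mm10 with RSEM 1.2.11, used DESeq2 1.8.1 for counts, and deposited TPM values per gene and sample. TPM keeps no depth, so no counting interval was computed and no count test was run. Clones and replicates were taken from the sample titles.

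Genes that did not exceed 1 TPM in any sample were dropped, which kept 12115 of 24060. Values were taken as log2(TPM + 1), which understates changes of low genes, and fitted with limma 3.58.1 in R 4.3.3 on all 9 samples, the prior spread following mean expression. P-values were adjusted by Benjamini-Hochberg over all tested genes within a pair and called under 0.01, without the 2-fold minimum of the study. Near-identical rows were found with BLAST+ 2.17.0 among GENCODE transcripts of GRCm38, whose coordinates are given. The members and lists were chosen with earlier results of these data known. Genes were named by rule: per pair the 5 smallest adjusted p in each direction among called members, the 3 members furthest above and below the family median, the paralogs and their parents, Rplp0, Rplp1, Rplp2 and Rpsa, the 3 highest and 3 lowest tested members, and up to 3 called genes of each translation list. Others were named after their values were seen. Some genes are not reported here.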

Additional observations from a re-analysis of the deposited data

How the results depend on the processing

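Numbers of called ribosomal protein genes are given in the order Rop7-III against Rop7-II (7 as reported), Rop7-III against Rop7-I (5), Rop7-I against Rop7-II (12) and F test (17). They were 2, 0, 5 and 4 with no filter on low values, 4, 0, 5 and 4 with samples shifted to a common median, 1, 0, 3 and 3 without the trend of the spread, and 1, 0, 0 and 1 once the dependence on transcript GC and length was taken out of every sample (known for 11996 genes). They were 26, 13, 33 and 44 at an adjusted p under 0.05, and 0, 0 and 0 with a 2-fold minimum. Fits of only the clones compared called 2, 3 and 4. Requiring 1 TPM or more throughout gave 11 in the first pair, quantile normalization 14 and 8 in the first and second pairs, and sample weights 8 in the second. The B-cell level as a covariate gave 4 and 3 in the first and second pairs and 14 in the F test. In the third pair it gave 14 upward and 1 downward, with a median of 0.0873. Leaving out 1 sample gave 1 to 7, 0 to 6, 2 to 12 and 4 to 14. The causes were not tested.

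With the replicate number as a block (a paired fit) the counts were 4, 0, 6 and 8. Deviations from the clone means correlated between -0.39 and 0.11 in the 9 same-numbered pairs, 1 of them over 0.1, as were 6 of 18 pairs with different numbers. Same-numbered samples were thus no closer than others. The value of -0.39 involves Rop7-II replicate 1, and with 3 samples per clone this cannot settle whether same-numbered samples were handled together. The medians of the family became 0.0295 (Rop7-III against Rop7-II) and 0.0514 (Rop7-I against Rop7-II) under quantile normalization and 0.11 and -0.0067 for the first and second without the GC and length trend. Read against the family's own median, which removes a shared shift by construction, they were 0.0115, 0.0106 and -0.0180, the last 2 of opposite sign. The other alternatives left the medians within 0.03 (SD between replicates 0.02), which for the second pair included -0.0258 without Rop7-III replicate 3.

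Shares in Rop7-I, Rop7-II and Rop7-III rose to 19.8, 18.9 and 19.5% with the ribosomal proteins of other symbols, to 22.7, 21.7 and 22.3% of a total without the 100 highest other genes, and to 20.3, 19.3 and 19.9% with near-identical rows, and in Rop7-I to 19.0% with pseudogene rows. Without 1 sample they were 18.68 to 18.73%, 17.75 to 17.99% and 18.15 to 18.56%. Over 552 values of called genes under the alternatives, 0 changed sign and 261 lost the call. The unknown depth limits what low values such as those of the paralogs can show.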
